A study of Mus musculus with 8 samples.

Results

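Hepatic macrophages from steatotic livers were compared with those from normal livers after both had been given cholesterol crystals (CC). All genes with at least 0.5 CPM (counts scaled to the library total) in at least 2 of the 4 CC libraries were described in both directions, which kept 14114 of the 55401 genes in the table and 4 of the 8 samples of the series. Each group had 2 libraries. The steatotic livers came from melanocortin 4 receptor-deficient (MC4R-KO) mice, whose Western diet lasted between 6 and 10 weeks, and the normal livers from wild-type (WT) mice kept on a standard diet, both of the C57BL/6J background. The macrophages were taken from the liver with magnetic columns and an antibody against F4/80, plated on collagen, and exposed to CC at 500 μg/ml for 24 h before poly(A) RNA was sequenced. The remaining 4 libraries held the same cells with vehicle (Veh) and were used to set each difference with CC beside the difference without it and, in the shared fit, to estimate the spread (the 4 CC libraries alone gave 2150 higher and 1747 lower genes). Genotype, diet and liver state changed together between the groups and cannot be told apart. Nothing in the labels says whether the libraries of a group came from separate animals or cultures, so p-values measure only the spread between these libraries, which may be technical.

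Kupffer cells are the macrophages that live in the liver sinusoids and clear particles, dying cells and iron from the blood. Obesity and a fat-rich diet bring blood monocytes into the liver, where some become macrophages that handle lipid and lie beside scars. Cholesterol crystals taken up by a macrophage end in the lysosome, the acid compartment where lipids, proteins and sugars are broken down. Macrophages signal to fibroblasts and stellate cells with growth factors, matrix proteins and proteases.

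The 8 libraries held 58668655 to 74529462 counts, and the Pearson correlation of log2 CPM between the libraries of a group was 0.983 to 0.986. The receptor gene disrupted in the MC4R-KO mice, Mc4r, had 0 counts in the normal libraries, and 53 and 72 counts in the CC libraries labelled steatotic (0.808 and 0.966 CPM), so every direction below rests on the labels, and the origin of these counts was not tested. Here and below, a pair of values gives the 2 libraries of a group, in CPM of the library total, and the normal group stands first. Of the 12 pan-macrophage markers tested, 6 were higher and 3 lower with the label steatotic, and their summed level was 16029 to 16278 CPM in the normal CC libraries and 13779 to 14793 CPM in the steatotic ones. F4/80 itself is the product of Adgre1, which was used to select the cells (814 and 821 CPM with normal, 1055 and 1115 CPM with steatotic). Markers of other liver cells also differed between the groups. All 17 of the tested T and natural killer cell markers were higher (summed 6.83 to 7.52 CPM with normal, 77.0 to 82.1 CPM with steatotic), and 10 of 11 hepatocyte markers were lower (72.6 to 84.7 CPM against 4.72 to 6.31 CPM). Of these, 13 T and natural killer cell markers reached 0.5 CPM only in the steatotic libraries and 9 hepatocyte markers only in the normal ones, so the filter largely set both counts. Of all genes 16.8% were higher and 14.6% lower. Of 4 neutrophil markers tested 2 were higher and 1 lower, and of 4 stellate cell and fibroblast markers 2 were higher and 1 lower. The neutrophil list summed to 163 CPM with normal and 391.8 to 399 CPM with steatotic, but its defining marker Ly6g was at 0 in every library. The stellate cell and fibroblast list summed to 11.3 to 13.9 CPM with normal and 117 to 145 CPM with steatotic, nearly all of it Dcn in the steatotic libraries, while Col1a1 was at most 0.068 CPM in the CC libraries. Sinusoidal endothelial cell markers summed to 224 to 230 CPM with normal and 310 to 319 CPM with steatotic, with 5 of 15 higher and 2 lower. Of 8 cholangiocyte markers 1 was higher and none lower, and neither of 2 B cell markers passed. The part of these cells in the results below was not tested. In such bulk libraries, fewer cells of a type and less RNA per cell cannot be told apart.

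**Figure D1:**
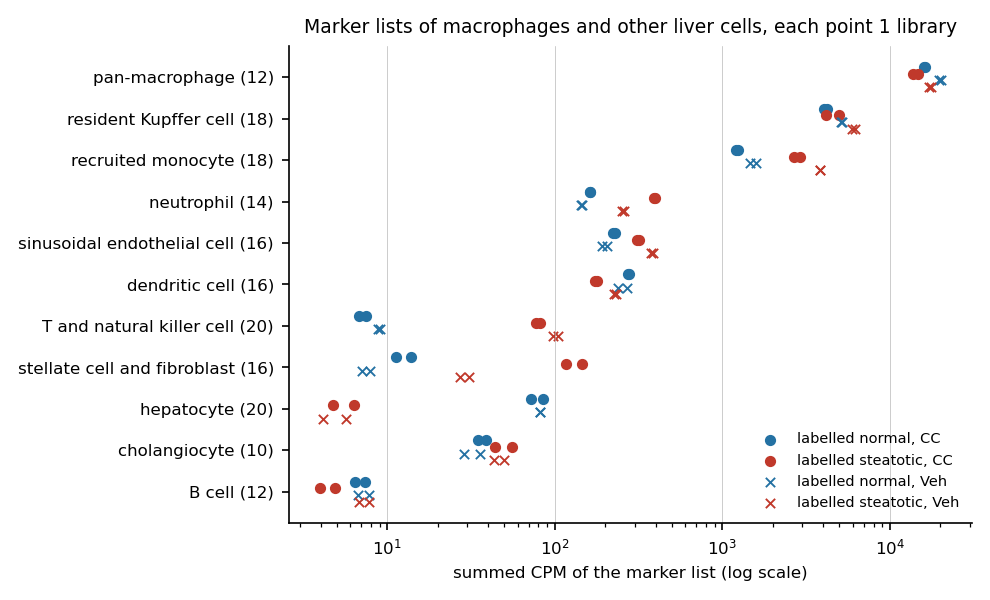
Summed CPM of each marker list (log scale, number of listed genes in brackets) for all 8 libraries, with blue for the label normal, red for steatotic, circles for CC and crosses for Veh. Pan-macrophage markers had the highest sums in every library, the T and natural killer cell and fibroblast lists were higher with steatotic, and the hepatocyte list was lower.

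Macrophages from steatotic livers differed from normal ones in many genes of either direction. With CC, 2373 genes were higher (16.8% of those tested) and 2061 were lower (14.6%) at an adjusted p under 0.05 in edgeR's quasi-likelihood test, with 1351 lower genes when normal CC replicate 1 was left out. The changes upward were larger. More than 2-fold, 904 called genes were higher (6.4%) and 349 lower (2.47%). A test against a 2-fold change gave 425 and 97, and a minimum of 5 CPM gave 467 and 140. More than 8-fold 180 were higher and 51 lower. The median log2 fold change of steatotic over normal was -0.0052 over all genes tested, with the 5th percentile at -0.81 and the 95th at 1.44. Among the 6537 genes with a mean of 10 to 100 CPM, 1005 were higher and 1090 lower, and among the 101 genes at 1000 CPM or above, 33 were higher and 38 lower. Of the genes called, 218 of the higher ones reached 0.5 CPM only in the steatotic libraries and 91 of the lower ones only in the normal libraries, so a difference there was partly set by the filter. Genes just inside the filter had a second-highest value of 0.503 CPM (B3gnt6, Zfp697, Psrc1 and Tmem114), and genes just outside had 0.496 or 0.497 CPM (Pkp3, Ypel1, Spon1 and Tmem198).

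**Figure D2:**
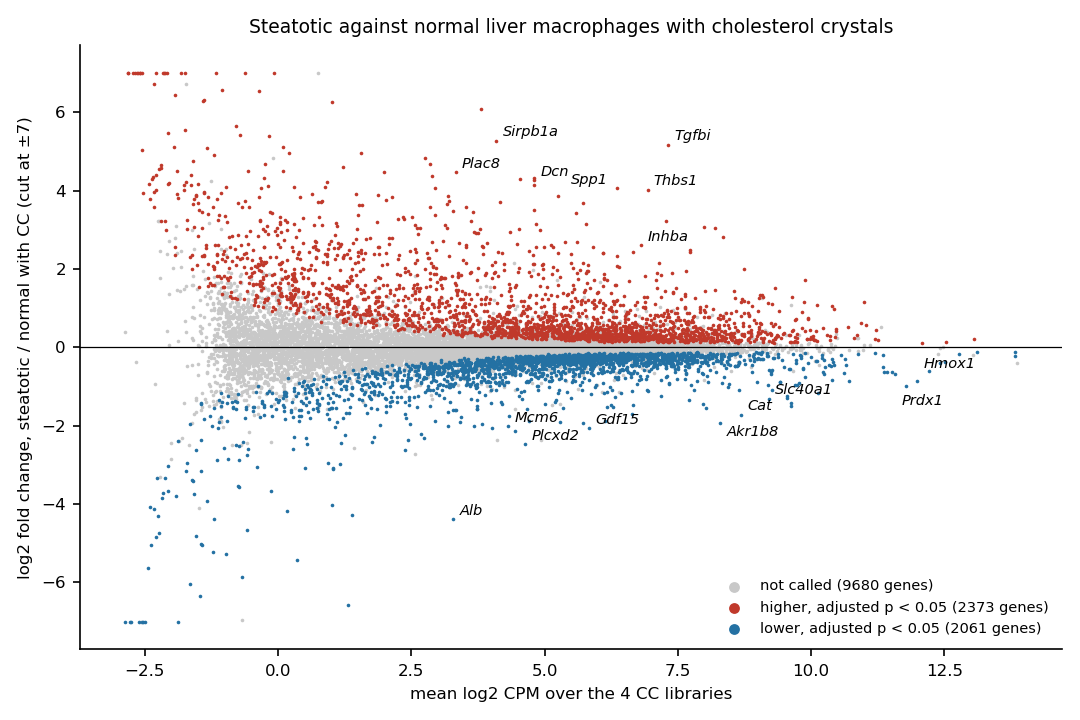
Log2 fold change of steatotic over normal with CC against mean log2 CPM of the 4 CC libraries, 1 point per gene, with 2373 genes higher (red), 2061 lower (blue) and the rest not called (grey). Upward changes reached further than downward ones at low and middle levels, as for Tgfbi at 5.17 on the right, and Prdx1 at -0.98 was among the most abundant genes that were lower.

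The 12 largest increases among well expressed protein-coding genes (mean above 3 log2 CPM) included surface receptors, secreted matrix proteins and a lymphocyte gene. Sirpb1a, an activating signal-regulatory protein (chr3:15371653-15426520, GRCm38), had 2.39 and 3.07 CPM in the normal and 101 and 108 CPM in the steatotic libraries, which gave 5.28 ± 0.12 in log2 fold change and its SE (adjusted p = 4.95e-07). Sirpb1b went from 10.9 and 9.02 CPM to 137 and 149.8 CPM, and because both genes belong to 1 family of near copies, their reads may be split between them. Tgfbi, named for its induction by transforming growth factor β, encodes an adhesive matrix protein (chr13:56609523-56639562) and had 26.1 and 26.6 CPM against 903 and 971 CPM (5.17 ± 0.058, adjusted p = 2.35e-08). Plac8, a gene of circulating monocytes, had 1.95 and 2.28 CPM against 40.1 and 53 CPM (4.48 ± 0.21, adjusted p = 1.42e-05). In each of these the steatotic libraries stood together, far above both normal ones. Anxa1, a lipocortin that dampens inflammation, had 5.94 and 6.65 CPM with normal and 144 and 103 CPM with steatotic. Thbs1, a matrix glycoprotein that activates latent transforming growth factor β (chr2:118111876-118127133), had 30.8 and 29.5 CPM against 498 and 470.1 CPM (4.02 ± 0.078, adjusted p = 1.79e-07). Spp1, which encodes osteopontin, a secreted protein of scar-associated macrophages (chr5:104435118-104441050), rose from 19.8 and 19.9 CPM to 339.7 and 316 CPM (4.06 ± 0.14, adjusted p = 4.80e-06). The proteoglycan gene Dcn, known from fibroblasts, had 7.0 and 5.69 CPM against 135 and 108 CPM, together with Bgn at 1.15 and 0.92 CPM against 5.69 and 5.78 CPM, but without Col1a1, as given above. Gzmb, a granule protease of cytotoxic lymphocytes, had 2.02 and 2.73 CPM against 33.8 and 34.6 CPM. It belongs to the T and natural killer cell list and these values are part of its sum, so its direction and the list's are not separate measurements. The remaining genes of the 12 highest were Gm21188, Adra1a, an adrenergic receptor, and Lat2, an adaptor of immune receptor signalling, with log2 fold changes of 4.14, 3.73 and 3.72. Gm21188 overlaps Gm31544, Sirpb1b overlaps Gm37468 and Lat2 overlaps Rfc2, so reads of these pairs may not be told apart.

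The 12 largest decreases, chosen in the same way, were smaller than the increases except for albumin. Alb, the albumin gene of hepatocytes, had 41 and 47.7 CPM with normal and 1.86 and 2.31 CPM with steatotic (-4.39 ± 0.21, adjusted p = 1.75e-05). It belongs to the hepatocyte list and these values are part of its sum, so its direction and the list's are not separate measurements. Gdf15, a hormone released by stressed cells (chr8:70629393-70632456), fell from 121 and 112 CPM to 30.9 and 24.5 CPM (-2.06 ± 0.15, adjusted p = 1.44e-04). Akr1b8, an aldo-keto reductase that detoxifies aldehydes (chr6:34354119-34368463), had 612 and 614 CPM against 147 and 169 CPM (-1.94 ± 0.064, adjusted p = 1.31e-06). No normal library came near a steatotic one in these genes. Hpgd, which inactivates prostaglandins, had 33.1 and 34 CPM against 5.55 and 10.4 CPM, and its steatotic libraries lay almost 2-fold apart. Cd207, the C-type lectin langerin, fell from 46.3 and 44.8 CPM to 9.93 and 10.5 CPM (-2.14 ± 0.090, adjusted p = 3.49e-06). Mcm6, a subunit of the replicative helicase, had 38.7 and 40.3 CPM against 9.99 and 9.49 CPM, and Treml4, a receptor that binds dead cells, had 101 and 104 CPM against 25.3 and 28.1 CPM. The other genes of the 12 lowest were Plcxd2, Ndrg4, Spats2, Dysf, a membrane repair protein, and Ttc28, at log2 fold changes of -2.47, -2.02, -2.01, -1.95 and -1.91.

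**Figure D3:**
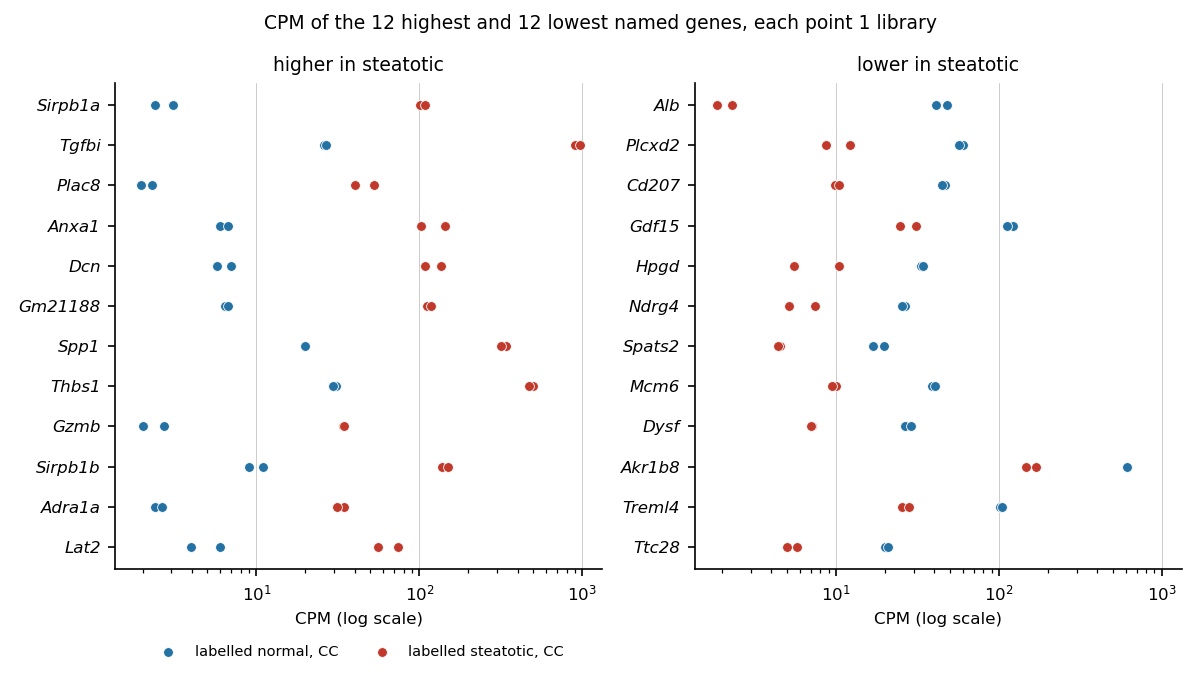
CPM of the 12 highest and 12 lowest protein-coding genes with a mean above 3 log2 CPM, each point 1 CC library, on a log scale, with blue for the label normal and red for steatotic. The groups did not overlap, which was part of the choice of these genes, and most libraries of a group lay on each other.

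Monocyte genes were higher almost throughout, while the Kupffer cell list was split. Of 17 recruited monocyte genes tested, 14 were higher and 1 was lower, against the 16.8% and 14.6% of all genes, with a median log2 fold change of 2.54. The counts of all gene lists below are to be read against these shares, and their medians against the all-gene median of -0.0052. Of the called members, 1 monocyte gene, 1 chemokine ligand, 2 cytokines, 1 integrin, 2 C-type lectins, 1 cathepsin, 1 gene of the arginine list and 3 cell cycle genes passed the filter only through the steatotic libraries. One lipid mediator gene and 1 dendritic cell marker passed only through the normal ones. Beside Plac8, the higher monocyte genes included Vcan (1.36 and 1.43 CPM to 33.4 and 37.6 CPM), a proteoglycan of classical monocytes, and Ly6c2, the defining surface antigen of inflammatory monocytes (3.12 and 2.74 CPM to 24.3 and 25.9 CPM). Ccr2, the receptor through which monocytes leave the bone marrow, had 1.01 and 0.767 CPM against 4.79 and 5.43 CPM (2.54 ± 0.19, adjusted p = 6.94e-05), a low level in both groups. Ms4a4c had 85.5 and 89.9 CPM against 705 and 741 CPM. Nr4a1, a nuclear receptor needed by patrolling monocytes, was the member that was lower (-0.40 ± 0.088), and it no longer passed without normal replicate 1 (-0.39) or steatotic replicate 2 (-0.38). Itgam did not pass the test, at 147 and 138 CPM against 221 and 330.0 CPM. Of 18 Kupffer cell genes, 6 were higher and 8 lower, with a median of -0.11. Timd4, a receptor for dead cells on long-lived Kupffer cells, rose from 3.48 and 4.5 CPM to 10.9 and 12.1 CPM, and the secreted protein gene Cd5l had 1611 and 1785 CPM against 2285 and 2728 CPM (0.58 ± 0.088, adjusted p = 0.00383). Marco, a scavenger receptor for particles, had 392.3 and 431 CPM against 127 and 173 CPM (-1.44 ± 0.15, adjusted p = 0.00109), and the Kupffer cell lectin Clec4f fell from 78.1 and 75.3 CPM to 42.6 and 49.9 CPM (-0.71 ± 0.079, adjusted p = 4.66e-04). Spic, a factor of iron-recycling macrophages, had 254 and 258 CPM against 298 and 621 CPM with steatotic libraries about 2-fold apart, and did not pass.

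Transcription factors of macrophages were more often higher than lower. Of 22 tested, 11 were higher and 2 lower (median 0.18). Runx3 had the largest fold change in the list (1.19 and 1.02 CPM to 4.73 and 3.85 CPM), and Maf, which keeps macrophages in a resting state, rose from 255 and 246 CPM to 451 and 457 CPM. The lineage factor Spi1 (PU.1) was higher by only 0.18 ± 0.033 on the log2 scale, and Zeb2 by 0.34 ± 0.047. Klf2 (-0.56) and Tfeb (-0.31), a regulator of lysosome genes, were lower, the former not without normal replicate 1 (-0.46) or steatotic replicate 1 (-0.49), and the TFEB relative Tfe3 had 177 and 181 CPM against 180.3 and 178 CPM.

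Genes linked to lipid- and scar-associated macrophages were split. Of 18 tested, 10 were higher and 7 lower, with a median of 0.62. The higher members included Spp1, Kcnn4, a calcium-activated potassium channel (1.71 and 1.98 CPM to 32.4 and 28.9 CPM), Fabp4, a fatty acid carrier (5.32 and 4.18 CPM to 27.5 and 27.9 CPM), and Fabp5 (248 and 244 CPM to 580.5 and 583 CPM). Itgax, which encodes CD11c, the surface marker of macrophages around dead hepatocytes, rose from 29 and 30.2 CPM to 165 and 145 CPM (2.41 ± 0.12, adjusted p = 1.20e-05). Cd9 (0.61) and the vacuolar ATPase subunit Atp6v0d2 (0.64) were higher as well. Lipa, the lysosomal lipase that frees cholesterol from its esters, fell from 1798 and 1782 CPM to 989 and 1002 CPM (-0.83 ± 0.030, adjusted p = 1.84e-06). Lpl, which releases fatty acids from lipoproteins, had 3401 and 3419 CPM against 2181 and 2178 CPM, and Mmp12, an elastase, 3957 and 3749.8 CPM against 2579.7 and 2161 CPM. Lgals3 (-0.36), Trem2 (-0.19), Plin2 (-0.18) and Gpnmb (-0.11) were lower by small amounts. The call of Trem2 was lost without normal replicate 1 (-0.21), normal replicate 2 (-0.16) or steatotic replicate 2 (-0.13), and that of Gpnmb without any of the same libraries (-0.10, -0.12 and -0.078). The tetraspanin gene Cd63 had 500.4 and 481 CPM against 522 and 503 CPM and did not pass. Of the 21 tested genes that the study itself names, 11 were higher and 6 lower (median 0.61). That list was partly chosen on these libraries and is not independent evidence of its direction.

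Chemokine and chemokine receptor genes were more often higher than lower. Of 25 ligand genes tested, 13 were higher and 3 lower (median 0.25). Cxcl3, a ligand of neutrophils, rose from 16.2 and 13.4 CPM to 90.2 and 80.9 CPM (2.55 ± 0.12, adjusted p = 5.81e-06), and Cxcl13, which attracts B cells, from 7.63 and 8.08 CPM to 26.6 and 39.5 CPM. Ccl8 had 8.88 and 6.19 CPM against 39.1 and 41.6 CPM, Ccl6 104 and 98.7 CPM against 403 and 369.5 CPM, and Ccl5 345 and 319 CPM against 824 and 822 CPM. Xcl1, a chemokine of natural killer and T cells, had 0.192 and 0.0682 CPM against 2.87 and 3.11 CPM, and reached 0.5 CPM only in the steatotic libraries, as did 13 of the 17 markers of those cells. By contrast Ccl3 fell from 458 and 429 CPM to 257 and 206 CPM (-0.92 ± 0.10, adjusted p = 8.54e-04) and Ccl4 from 211 and 194 CPM to 124 and 111 CPM. Ccl2, the ligand of CCR2, had 507 and 436 CPM against 472 and 437 CPM and did not pass. Of 12 receptors, 6 were higher and 1 lower (median 0.44). Ccr1, a receptor of inflammatory chemokines, had 79.4 and 74.6 CPM against 287 and 257 CPM (1.84 ± 0.068, adjusted p = 2.07e-06). Ccr7, which leads dendritic cells to lymph nodes, was lower (5.85 and 4.7 CPM to 1.25 and 0.671 CPM, with a call that was lost without normal replicate 1 or steatotic replicate 2, at log2 fold changes of -2.28 and -2.06). Of the 9 dendritic cell markers tested, 4 were lower and 1 was higher, with sums of 274 to 279 CPM with normal and 173 to 178 CPM with steatotic, and their part in it was not tested.

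Of the cytokine genes, 11 of 21 were higher and 3 lower (median 0.64). Il1b rose from 74.4 and 66.4 CPM to 114 and 114 CPM (0.71 ± 0.062, adjusted p = 1.37e-04) and Il10, an inhibitory cytokine, from 5.19 and 6.14 CPM to 12.5 and 12 CPM. Osm, which acts on stellate cells and hepatocytes, had 1.09 and 0.477 CPM against 5.75 and 5.58 CPM, and Tnfsf14 0.385 and 0.273 CPM against 3.13 and 2.63 CPM. Tnfsf14 and 1 more of the 11 higher genes, Tnfsf8, reached 0.5 CPM only in the steatotic libraries. Tnf was lower (151 and 155 CPM to 106 and 91 CPM, -0.61 ± 0.072, adjusted p = 6.21e-04), as was Il1rn, which blocks interleukin 1 (1207 and 1231 CPM to 989.5 and 915.3 CPM). Il1a had 168 and 168 CPM against 186 and 168 CPM and did not pass.

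Growth factor genes that act on fibroblasts and vessels went in both directions, and the larger changes were upward. In the activin and transforming growth factor list 7 of 20 were higher and 5 lower (median 0.61), and in the mitogen list 6 of 12 were higher and 2 lower (median 0.24). Inhba, whose product forms activin A (chr13:16011851-16031621), had 47.3 and 43.7 CPM with normal and 312 and 237 CPM with steatotic (2.61 ± 0.22, adjusted p = 7.11e-04). Vegfa, the vascular endothelial growth factor, had 6.15 and 5.83 CPM against 35 and 39.4 CPM (2.65 ± 0.11, adjusted p = 3.46e-06), and Vegfb 23.7 and 22.2 CPM against 8.05 and 7.04 CPM (-1.59 ± 0.10), so these family members moved in opposite directions. Pdgfb, a mitogen of stellate cells, rose from 50.1 and 45.3 CPM to 76.2 and 68.7 CPM. Igf1 had 260.4 and 256 CPM against 349.7 and 372 CPM. Tgfb1 had 285 and 279 CPM against 286 and 267 CPM and did not pass, and the receptor gene Tgfbr2 was lower (-0.37).

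Genes of matrix turnover and of integrins were mainly higher where they passed the test. Of 13 matrix metalloproteinases and inhibitors, 8 were higher and 3 lower (median 0.81). Mmp13, a collagenase, had 775 and 754 CPM against 1612 and 1564 CPM (1.07 ± 0.035, adjusted p = 1.31e-06), Mmp14, a membrane-bound collagenase, 275 and 288 CPM against 520.1 and 529 CPM, and Mmp8 75.8 and 74.5 CPM against 241 and 243 CPM. Mmp10, a stromelysin, had 1.38 and 1.41 CPM against 4.24 and 4.37 CPM, a low level with little spread. The inhibitor gene Timp1 rose from 0.593 and 0.273 CPM to 8.31 and 7.63 CPM. Among 22 matrix and crosslinking genes 13 were higher and 2 lower (median 0.33), among them fibronectin, Fn1 (5.32 and 6.8 CPM to 17.6 and 15.7 CPM). Of 23 integrin genes 12 were higher and none was lower (median 0.86). Itgb7, a partner of the α4 chain in leukocyte homing, had 51.6 and 50.5 CPM against 459 and 474 CPM (3.21 ± 0.042, adjusted p = 3.27e-08), and Itga4 had 18.7 and 16.5 CPM against 68.9 and 74.3 CPM. Itgad was at 0 in both normal libraries and had 7.3 and 5.97 CPM in the steatotic ones.

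The start sites of 3 of these genes and of Spp1 hold short words that factors of macrophages are known to bind. The RefSeq windows below, from 250 bases before to 50 bases after the start on GRCm38.p6, are shown in the direction of the gene, all on the plus strand. These 4 windows were chosen after the search as examples that held one of 5 words searched, from named genes that were higher with steatotic and had an upward difference from the Veh contrast. Nfix also met this, with the AP-1 word 81 bases before the start in one of its windows and none of the words in its others, and is not shown. The windows of Inhba, Clec4e, Slc7a11, Cxcl13 and Sirpb1a, which met it too, and the second window of Spp1 held none of the words. Single windows were looked at only for genes ranked by fold change or difference and a few chosen ones. Other named genes that met the condition, such as Mmp14, Nos2 and Ptgs2, were not looked at singly. Capitals mark the AP-1 word TGANTCA, with its first base 35 (Mmp13), 63 (Mmp10) and 56 (Itgax) bases before the start, and in Spp1 the PU.1 word GAGGAAGT, 113 bases before the start. The windows lie at chr9:7272264-7272563, chr9:7502092-7502391, chr7:128129300-128129599 and chr5:104434861-104435160, and a match describes the letters only.
Mmp13: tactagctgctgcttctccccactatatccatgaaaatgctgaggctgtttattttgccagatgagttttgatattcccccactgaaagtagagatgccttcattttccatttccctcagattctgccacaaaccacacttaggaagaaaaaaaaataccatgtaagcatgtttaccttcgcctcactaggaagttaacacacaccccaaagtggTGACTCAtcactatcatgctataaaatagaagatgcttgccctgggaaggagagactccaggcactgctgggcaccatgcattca
Mmp10: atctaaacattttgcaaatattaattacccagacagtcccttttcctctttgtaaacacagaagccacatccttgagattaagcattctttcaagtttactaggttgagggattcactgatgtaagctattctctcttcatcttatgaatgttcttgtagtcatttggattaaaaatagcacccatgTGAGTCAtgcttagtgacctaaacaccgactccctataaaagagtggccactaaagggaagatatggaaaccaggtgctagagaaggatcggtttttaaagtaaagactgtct
Itgax: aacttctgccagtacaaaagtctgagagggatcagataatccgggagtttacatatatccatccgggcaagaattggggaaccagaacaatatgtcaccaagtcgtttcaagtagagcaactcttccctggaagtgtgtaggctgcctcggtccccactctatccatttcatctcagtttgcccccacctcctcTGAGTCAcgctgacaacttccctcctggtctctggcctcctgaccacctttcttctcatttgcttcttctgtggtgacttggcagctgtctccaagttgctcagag
Spp1: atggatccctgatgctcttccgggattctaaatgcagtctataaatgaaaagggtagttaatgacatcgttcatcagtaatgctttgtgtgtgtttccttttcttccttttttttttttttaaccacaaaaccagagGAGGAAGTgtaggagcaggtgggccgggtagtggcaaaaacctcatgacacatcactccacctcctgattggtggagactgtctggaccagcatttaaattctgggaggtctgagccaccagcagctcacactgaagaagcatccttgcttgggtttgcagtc

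These words were also counted in all windows on either strand, with 5 words searched (EGR GCGTGGGCG, E-box CACGTG, AP-1 TGANTCA, NF-kB GGGNNTTCC and PU.1 GAGGAAGT, none of which contains another). The table matched 9946 of the tested genes, with 12683 windows. The AP-1 word was in 8.26% of the 2227 windows of genes higher with CC, in 4.89% of the 1964 windows of genes lower, in 5.57% of windows of all tested genes and in 7.81% of all 32851 windows. For the PU.1 word the shares were 5.30%, 3.21%, 3.37% and 3.20%, and for the NF-kB word 7.90%, 6.36%, 7.30% and 5.82%. The E-box was in 7.23% of windows of higher genes and 13.7% of those of lower genes, against 10.0% of tested and 7.15% of all windows. The EGR word was rare (0.943%, 1.43%, 1.20% and 0.612%). Windows of higher genes held 58.1% G and C and those of lower genes 61.4%, and the part of base composition in these shares was not tested.

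Surface receptors of innate immunity were more often higher than lower. Of 11 toll-like receptors 5 were higher and 1 lower (median 0.46), as for Tlr1 (33.5 and 34.1 CPM to 101 and 91.3 CPM) and the DNA receptor Tlr9 (35.2 and 32.4 CPM to 79.9 and 71.9 CPM). Tlr4 did not pass, and each group held a high and a low library (21.8 and 179 CPM with normal, 202 and 26.4 CPM with steatotic). Of 8 Fc receptors 4 were higher and 2 lower (median 0.46). Fcgr1 had 605 and 629.7 CPM against 1351 and 1384 CPM, and the inhibitory Fcgr2b 26.3 and 27.8 CPM against 67.2 and 66.5 CPM. Fcgrt, which recycles antibodies, fell from 36.6 and 31.8 CPM to 16.5 and 20.5 CPM. Among 21 C-type lectins 11 were higher and 5 lower (median 0.56). Clec4e (Mincle), a sensor of damaged cells and of cholesterol crystals in human cells, had 79.7 and 78.4 CPM against 169 and 179 CPM (1.16 ± 0.046, adjusted p = 2.74e-06), and the mannose receptor Mrc1 fell from 219 and 213 CPM to 135 and 143 CPM (-0.62 ± 0.045).

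Receptors that take up lipoproteins, particles and dead cells went both ways. Of 15 scavenger receptors 6 were higher and 6 lower (median -0.10), with Cd36, a fatty acid and oxidised lipoprotein receptor, at 961 and 985 CPM against 1757 and 2048 CPM, Msr1 at 1175 and 1221 CPM against 1616 and 1631 CPM, and Colec12 at 133 and 132 CPM against 42.9 and 47.8 CPM. The cholesterol acceptor receptor Scarb1 was lower (109.6 and 111 CPM to 76.5 and 73.1 CPM). Of 14 genes of dead-cell uptake 7 were higher and 5 lower (median 0.16). Gas6, which bridges dying cells to AXL and MERTK, fell from 48.4 and 46.9 CPM to 22.2 and 24.4 CPM (-1.01 ± 0.071, adjusted p = 4.28e-05), and Axl from 669 and 697 CPM to 552 and 573 CPM.

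Complement genes were mainly higher, 11 of 17 against 1 lower (median 0.60). The C1q chains C1qa (334 and 344 CPM to 799.7 and 882 CPM), C1qb (1.09) and C1qc (1.43) moved together, as did C3 (282 and 285 CPM to 618 and 661 CPM) and factor B, Cfb (923 and 945 CPM to 1803 and 2005 CPM). C2, a further convertase component, was the lower member (233 and 238 CPM to 124 and 141 CPM). In the class II antigen presentation list, 4 of 8 genes were higher and none lower (median 0.49), with H2-Aa at 111 and 115 CPM against 184 and 206 CPM. The invariant chain gene Cd74 had 660.4 and 671 CPM against 804 and 816 CPM and did not pass.

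Signalling outputs differed between pathways. Among 35 interferon-stimulated genes 21 were higher and 5 lower (median 0.25). Ifi44 (80.9 and 80.1 CPM to 228 and 229.8 CPM) and Mx1 (109 and 120.2 CPM to 208 and 220.4 CPM) were higher, whereas Ifit3 fell from 2239 and 2270.0 CPM to 1227 and 1231 CPM (-0.86 ± 0.030, adjusted p = 1.79e-06) and Rsad2 from 1866 and 1891 CPM to 1398 and 1333 CPM. Of 17 NF-kB factors and feedback inhibitors 10 were higher and none lower (median 0.31), such as Tnip1 (0.76) and Relb (0.39). Of 15 STAT and SOCS genes 7 were higher and none lower (median 0.39), among them Cish (2.18) and Socs3 (139.9 and 135 CPM to 237 and 228 CPM). In the EGR and AP-1 list 3 of 19 were higher and 7 lower (median -0.11). Fosl1 fell from 22.7 and 19.7 CPM to 8.52 and 7.97 CPM and Jun from 203 and 205 CPM to 169.6 and 159 CPM, while Egr1, a growth factor response gene, had 62.5 and 62 CPM against 57.9 and 58.9 CPM and did not pass (adjusted p = 0.452). The MAPK feedback list had 8 of 25 higher and 6 lower (median -0.017), with Dusp5, an ERK phosphatase, at 32.6 and 31.8 CPM against 77.8 and 66 CPM, and Dusp7 at 61.1 and 58.3 CPM against 34.7 and 36.5 CPM.

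**Figure D4:**
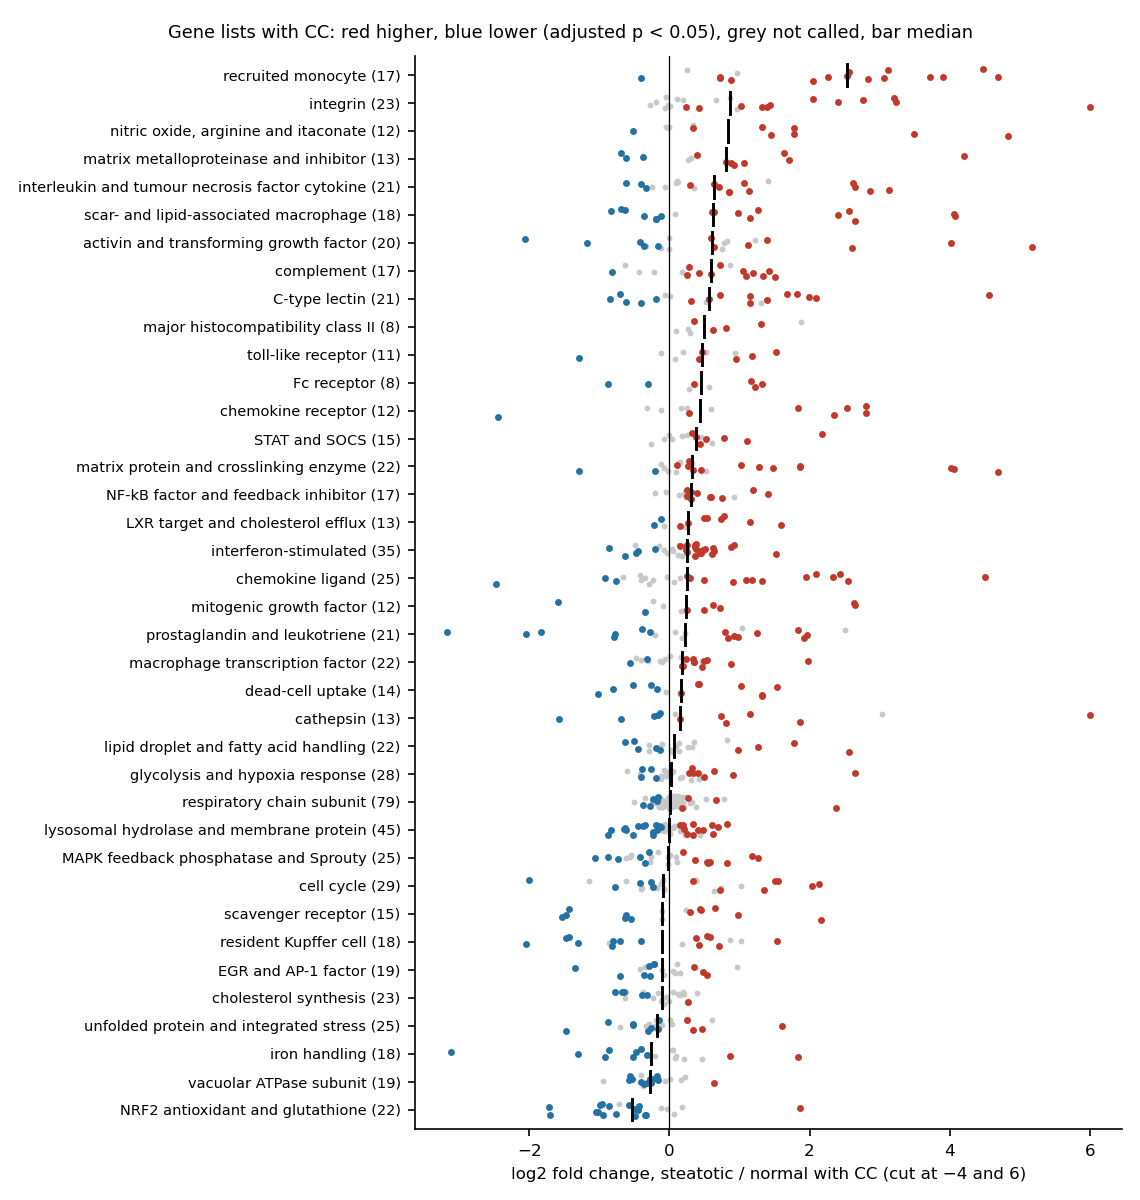
Log2 fold change of steatotic over normal with CC for every tested member of each gene list (1 point per gene, number tested in brackets, lists ordered by median), with red for higher, blue for lower, grey for not called and a bar at the median. Of the lists drawn, monocyte genes had the highest median (2.54) and NRF2 targets the lowest (-0.53), and most lists held genes of both directions.

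Lysosomal genes differed between lists. Subunits of the vacuolar ATPase, the pump that acidifies the lysosome, were lower in 11 of 19 cases and higher in 1 (median -0.28). Atp6v1a had 1096 and 1115 CPM against 773 and 737 CPM (-0.53 ± 0.037, adjusted p = 4.02e-05), and Atp6v1h 245 and 235 CPM against 157 and 162 CPM. The higher one was Atp6v0d2, found in multinucleate and foamy macrophages (159 and 162 CPM to 262 and 231 CPM). Cathepsins went in both directions, 6 higher and 5 lower of 13 (median 0.15). The cysteine proteases Ctsl (1295 and 1426 CPM to 2919 and 3029 CPM) and Ctsk (15.6 and 15 CPM to 56.2 and 53.1 CPM) were higher, whereas Ctsa, which protects lysosomal sialidase, fell from 1568 and 1505 CPM to 938 and 942 CPM (-0.69 ± 0.037, adjusted p = 1.10e-05). Ctsb and Ctsd were lower, with log2 fold changes of -0.21 ± 0.028 and -0.17 ± 0.028. Among 45 further lysosomal hydrolases and membrane proteins 12 were higher and 15 lower (median -0.0048). Gm2a, which lifts gangliosides from the membrane for their breakdown, rose from 93.2 and 94.9 CPM to 162 and 167 CPM. Lamp1, a glycoprotein of the lysosomal membrane, had 2049 and 2086 CPM against 1953 and 1934 CPM and did not pass. The E-box CACGTG, the core of the word that TFEB and TFE3 bind, is shown in capitals in the windows of 2 genes that were lower and were chosen for holding it, Ctsa (chr2:164833523-164833822, first bases 12 before and 5 after the start) and Atp6v1a (chr16:44139210-44139509, gene on the minus strand, 131 bases before the start). The other window of Ctsa held none of the 5 words. Gdf15 and Ndrg4, also lower, each held the E-box in one window and are not shown.
Ctsa: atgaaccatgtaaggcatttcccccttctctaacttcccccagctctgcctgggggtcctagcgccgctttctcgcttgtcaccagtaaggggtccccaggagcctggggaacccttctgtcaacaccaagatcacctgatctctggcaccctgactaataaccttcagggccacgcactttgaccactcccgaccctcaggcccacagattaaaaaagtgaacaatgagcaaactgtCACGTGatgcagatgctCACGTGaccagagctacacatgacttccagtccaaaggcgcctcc
Atp6v1a: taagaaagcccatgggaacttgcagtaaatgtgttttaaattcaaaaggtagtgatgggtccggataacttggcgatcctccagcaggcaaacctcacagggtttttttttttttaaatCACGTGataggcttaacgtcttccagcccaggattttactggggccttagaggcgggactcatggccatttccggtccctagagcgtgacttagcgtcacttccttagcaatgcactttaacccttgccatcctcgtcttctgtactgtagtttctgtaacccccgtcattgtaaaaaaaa

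Cholesterol export genes were mostly higher. Of 13 LXR targets and efflux genes 8 were higher and 2 lower (median 0.27). Abca1, the pump that loads cholesterol on apolipoprotein, had 761 and 747 CPM against 1256 and 1234 CPM (0.74 ± 0.056, adjusted p = 6.48e-05), Abcg1 764 and 766 CPM against 1089 and 1045 CPM, and the phospholipid transfer protein Pltp 296 and 309.9 CPM against 632 and 697 CPM. The receptor LXRα itself, Nr1h3, was higher (116 and 121 CPM to 167 and 173 CPM). Of 23 cholesterol synthesis genes 1 was higher and 5 lower (median -0.11), against 16.8% higher and 14.6% lower of all genes, with Lss at 14.5 and 13.5 CPM against 7.84 and 8.25 CPM. With Veh, 14 of the 23 were lower, at a median of -0.41, but the difference between the contrasts was called for only 1 of the 23 and not for 22. Of 22 genes of lipid droplets and fatty acids 4 were higher and 5 lower (median 0.071). Acsl3, a fatty acid activating enzyme of the droplet, rose from 3.83 and 5.68 CPM to 15.4 and 16.7 CPM.

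Lipid mediator genes went in both directions. Of 21 genes 8 were higher and 7 lower (median 0.22). Ptgs2 (COX-2), the inducible enzyme of prostaglandin synthesis, rose from 27.6 and 23.9 CPM to 104 and 94.4 CPM (1.97 ± 0.10, adjusted p = 8.41e-06) and Ptges, which makes prostaglandin E2, from 18.3 and 17.3 CPM to 34.7 and 34.5 CPM (0.98 ± 0.084). The constitutive Ptgs1 fell from 53 and 51.1 CPM to 27.3 and 32.1 CPM (-0.79 ± 0.093) and the prostaglandin D2 synthase Hpgds from 119 and 119 CPM to 69.4 and 68.3 CPM. The leukotriene receptor Cysltr1 had 8.81 and 8.39 CPM against 28.5 and 35.5 CPM.

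Genes of nitric oxide, arginine and itaconate were more often higher than lower. In the nitric oxide, arginine and itaconate list 7 of 12 were higher and 1 lower (median 0.83). Ass1, which remakes arginine from citrulline, had 7.8 and 8.74 CPM against 98.2 and 85.7 CPM (3.49 ± 0.14, adjusted p = 3.20e-06), and the inducible nitric oxide synthase Nos2 16.5 and 16.5 CPM against 41.5 and 40.4 CPM (1.33 ± 0.075, adjusted p = 1.47e-05). The arginine transporter Slc7a2 rose from 30.9 and 34 CPM to 92.6 and 82.9 CPM, and its relative Slc7a1 fell from 96.8 and 91.2 CPM to 63.5 and 66.6 CPM.

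Genes of the NRF2 response to oxidants had the lowest median of the lists outside the cell type markers. Of 22 tested, 16 were lower and 1 was higher (median -0.53, and 17 lower with Veh). Prdx1, a peroxiredoxin that reduces hydrogen peroxide, had 4933 and 4965 CPM against 2416 and 2524 CPM (-0.98 ± 0.031, adjusted p = 1.31e-06). Srxn1, which reactivates peroxiredoxins, fell from 469 and 501 CPM to 259 and 237 CPM, and Gclc, the catalytic subunit for glutathione synthesis, from 104 and 104 CPM to 60.2 and 60.4 CPM. The cystine transporter Slc7a11 was the exception, at 18.5 and 18.3 CPM against 67 and 65.8 CPM (1.87 ± 0.10, adjusted p = 1.33e-05). Iron genes were lower in 8 of 18 cases and higher in 2 (median -0.26). Hmox1, which frees iron from haem, fell from 5401 and 5469 CPM to 2884 and 3050.4 CPM (-0.86 ± 0.037, adjusted p = 4.13e-06), the exporter gene Slc40a1 (ferroportin) from 925 ± 15.8 CPM to 369 ± 32.2 CPM (mean ± SD, n = 2 each, log2 fold change -1.31 ± 0.056, adjusted p = 3.72e-06), and the transferrin receptor gene Tfrc from 96.7 and 91.5 CPM to 49.6 and 48.7 CPM. Lcn2, which withholds iron from bacteria, rose from 8.22 and 10.4 CPM to 36 and 29.3 CPM.

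Nuclear-encoded energy genes and cell cycle genes had medians within 0.1 of that of all genes. Of 79 nuclear-encoded respiratory chain subunits 4 were higher and 6 lower (median 0.0057), of 28 glycolysis and hypoxia genes 8 and 4 (median 0.026), with Hif1a at 177 and 173 CPM against 317 and 331 CPM, and of 29 cell cycle genes 7 and 5 (median -0.088), against 16.8% higher and 14.6% lower of all genes. Of the 7 higher cell cycle genes, 3 reached 0.5 CPM only in the steatotic libraries. Of 25 unfolded protein and integrated stress genes 4 were higher and 8 lower (median -0.18). Nupr1 rose from 23.4 and 29.6 CPM to 77 and 81.6 CPM, whereas Chac1, a glutathione-degrading stress gene, fell from 8.86 and 9.19 CPM to 3.2 and 3.22 CPM. The proliferation marker Mki67 had 5.8 and 6.39 CPM against 10.0 and 9.93 CPM, and the G1 cyclin Ccnd1 15.4 and 15.3 CPM against 8.84 and 8.76 CPM.

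Most differences between the livers were also seen without crystals. In the Veh libraries, on the same 14114 genes, 2480 genes were higher (17.6%) and 2211 lower (15.7%) with steatotic. Of the 2373 genes higher with CC, 1777 were also higher with Veh, 37 were lower and 559 were not called. Of the 2061 lower with CC, 1397 were also lower with Veh, 23 were higher and 641 were not called. Over all genes tested, the Pearson correlation of the log2 fold changes with CC and with Veh was, as a description, 0.733 and Spearman's rho 0.675, across genes that share the same libraries and are not independent replicates. Tgfbi, higher in both contrasts, had 28.4 and 30.7 CPM against 1324 and 1314 CPM with Veh (5.53 ± 0.059). Prdx1, lower in both, had 3279 and 3211 CPM against 1438 and 1449.5 CPM (-1.12 ± 0.032).

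The difference between the liver contrasts was tested directly, as steatotic over normal with CC against steatotic over normal with Veh. It was called upward with CC for 295 genes (2.09% of those tested) and downward for 213 (1.51%), and with any 1 library left out for 190 to 247 and for 109 to 183 genes. Among the genes not called with Veh, this test passed for 51 of the 559 higher and for 40 of the 641 lower with CC, so a call with CC alone did not show that the livers differed more with CC. Inhba was in the first group, with 6.53 and 8.41 CPM in the normal and 9.82 and 7.28 CPM in the steatotic libraries without crystals (0.24 ± 0.22), and a difference of 2.37 ± 0.31 (adjusted p = 0.0217). Spp1 differed between livers without crystals too, at 9.94 and 12.9 CPM against 57.7 and 50.9 CPM, but by less than with CC (difference 1.77 ± 0.17, adjusted p = 0.00572). Slc7a11 had 8.56 and 9.91 CPM against 9.29 and 7.91 CPM with Veh (difference 1.93 ± 0.15, adjusted p = 0.00155). For Itgax the Veh values were 21.7 and 22.4 CPM against 42.2 and 33.4 CPM, with a difference of 1.59 ± 0.16 (adjusted p = 0.00486). In these 4 genes the steatotic libraries with CC stood above the other 6 libraries. Cxcl13 had another order. With Veh it had 24.8 and 28.1 CPM against 28.6 and 26.9 CPM, and the normal libraries with CC were the low ones (difference 1.98 ± 0.25, adjusted p = 0.0103). Eef1a2, a translation elongation factor of muscle and nerve, had log2 fold changes of -0.48 with CC and -3.71 with Veh (difference 3.22 ± 0.13, adjusted p = 8.77e-05).

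Of all genes, 2.09% had a difference called upward and 1.51% one called downward. In the gene lists, the difference was called upward in 9 of 18 genes of lipid- and scar-associated macrophages and downward in 1, in 5 of 13 matrix metalloproteinases and inhibitors and downward in 1, in 4 of 12 arginine and nitric oxide genes, and in 4 of 25 chemokine ligands and downward in 1. It was downward in 5 of 14 genes of dead-cell uptake and upward in none. The lipid- and scar-associated list holds Spp1, Itgax, Fabp4 and Kcnn4. The study named these from the same libraries as rising with CC only in steatotic macrophages, so the 9 of 18 are not independent evidence. Gas6 had 94 and 88.7 CPM against 84.5 and 92.4 CPM with Veh, a difference of -1.01 ± 0.10 (adjusted p = 0.00318). Nos2 had 7.63 and 7.87 CPM against 9.51 and 8.85 CPM (difference 1.04 ± 0.11, adjusted p = 0.00373). Egr1 was lower with steatotic with Veh (21.9 and 20.4 CPM against 12 and 11.1 CPM), and the livers were closer with CC (difference 0.75 ± 0.094, adjusted p = 0.00681).

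A few genes were called in both contrasts with opposite directions. The difference itself passed the test in all 37 that were higher with CC and lower with Veh, and in 21 of the 23 that were lower with CC and higher with Veh. These genes were chosen for opposite calls in the same libraries, so that outcome was largely set by the choice and is no separate support. Clec4e had 39.6 and 38.9 CPM with normal and 25.2 and 24.6 CPM with steatotic in Veh, the reverse of its order with CC (difference 1.77 ± 0.065, adjusted p = 7.59e-05). Mmp10 behaved alike, at 0.397 and 0.725 CPM against 0.234 and 0.272 CPM with Veh (difference 2.73 ± 0.45, adjusted p = 0.0192), as did Ptges (8.4 and 7.58 CPM against 5.69 and 5.93 CPM, difference 1.39 ± 0.12) and Il1b (99.9 and 99.5 CPM against 85 and 79.3 CPM, difference 0.95 ± 0.088). Nfix, a developmental transcription factor that overlaps Lyl1, had log2 fold changes of 1.35 with CC and -1.40 with Veh. Mrc1 was higher with steatotic in Veh (369 and 376 CPM against 423 and 449 CPM) and lower with CC (difference -0.89 ± 0.064, adjusted p = 0.00121). Downward differences were also found for the growth factor gene Pgf (31.6 and 29.1 CPM against 11.7 and 10.2 CPM with CC, 8.43 and 9.01 CPM against 7.82 and 7.19 CPM with Veh), for Cd207 (-1.57 ± 0.12) and for Pecam1 (-1.20 ± 0.12), an adhesion molecule of endothelium and leukocytes. Srprb, Zdhhc24, Commd10, AI413582, which overlaps Hmga1, and Adcy3, which overlaps Cenpo, had downward differences of -1.21, -1.44, -1.38, -1.51 and -1.18. With Pgf, Cd207 and Pecam1 they held the largest among protein-coding genes above 3 mean log2 CPM that were called with CC. Pecam1 and Commd10 were higher with steatotic in both contrasts, at 0.71 and 0.26 with CC against 1.91 and 1.64 with Veh.

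**Figure D5:**
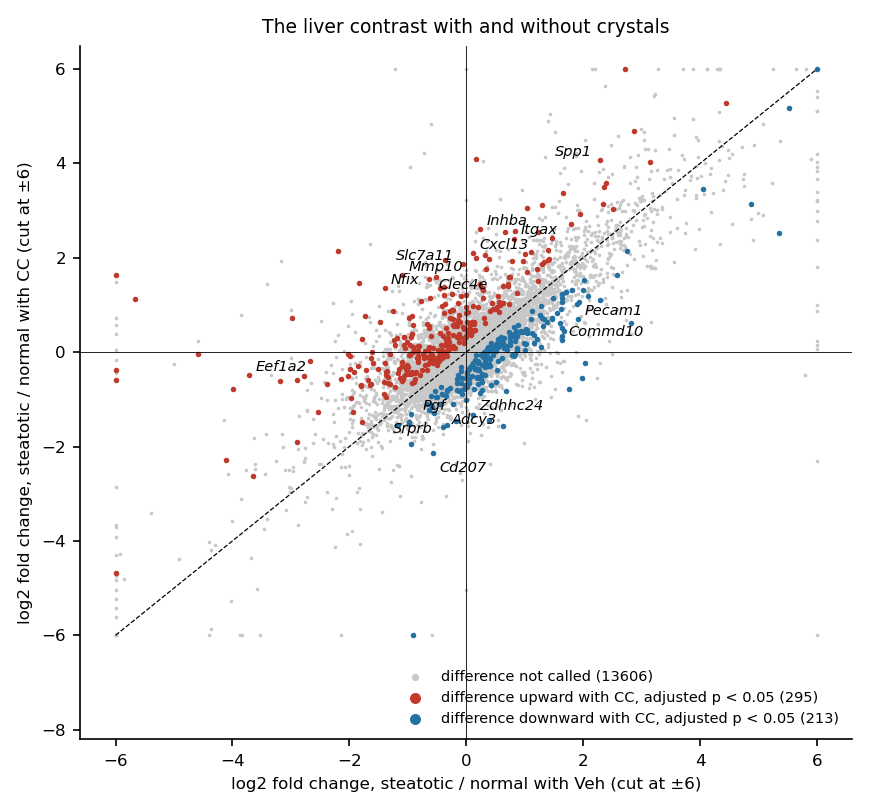
Log2 fold change of steatotic over normal with CC (vertical) against the same with Veh (horizontal), 1 point per gene, with red and blue for genes whose difference was called upward (295) or downward (213) with CC, and a dashed line where both are equal. Most genes lay along the line, and Inhba, Slc7a11 and Cxcl13 stood above it near a Veh value of 0.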

How the data were processed

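The 8 samples were poly(A) RNA libraries of hepatic macrophages, read as 150 bp pairs from a directional kit. Per the study's methods, the authors trimmed reads with fastp, aligned them with HISAT2 to mm10 and quantified genes with StringTie, whose versions are not given in the sources used here. The deposited table holds estimated counts per gene as whole numbers (no normalization). From their values, 1 fragment seemed to be worth about 4 counts, but the conversion is not stated. It is not stated whether strand was used in counting, so overlapping and antisense genes may share reads. The matrix was read with GENCODE gene names for GRCm38, and promoter windows came from RefSeq on GRCm38.p6.

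The members and the gene lists were chosen with earlier results of these data known. A gene was kept where 2 or more of the 4 CC libraries reached 0.5 CPM, which was 29.3 to 37.3 counts. All 8 libraries were fitted in 1 model with 4 group means in edgeR 4.0.16 (R 4.3.3, TMM factors 0.983 to 1.026, robust glmQLFit, glmQLFTest, residual df 4). The CC contrast, the Veh contrast and their difference were tested, with Benjamini-Hochberg adjustment over 14114 genes and a call at an adjusted p under 0.05. SE is the log2 fold change divided by the root of its F statistic. CPM values divide counts by the library total. Shares and levels cover counting error only. If 1 fragment is worth 4 counts, the smallest level that 3 fragments give was 0.161 to 0.205 CPM. Alternatives were DESeq2 1.42.0, other scalings, filters and prior counts, a replicate block, the 4 CC libraries alone, and leaving out each library.

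Genes named were the 12 highest and 12 lowest protein-coding log2 fold changes with CC among called genes above 3 mean log2 CPM. Their groups did not overlap. The 8 highest and 8 lowest differences between the contrasts came from protein-coding genes above that level, called with CC and in the difference. To these were added up to 6 called members per direction and 3 members not called of each list. Genes the study names, Mc4r and the genes at the filter completed them. Not every gene of these rules is described. Some list members outside the rules, such as Bgn, Clec4f, Ccl5, Tlr4, Srxn1 and Gclc, and the examples with opposite calls, were named after their values were seen. Plots were drawn with matplotlib 3.10.9.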

Additional observations from a re-analysis of the deposited data

Results flagged for a closer look

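The liver contrast differed between CC and Veh for 295 genes upward and 213 downward by the test of the difference in edgeR, and the genes named in the text that were among them are given here. All values are log2 fold changes of steatotic over normal with CC minus those with Veh.

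Among secreted factors and matrix genes the differences were 2.37 for Inhba, 1.77 for Spp1, 1.81 for Vcan, 0.88 for Thbs1, -0.36 for Tgfbi, 0.55 for Igf1, -1.28 for Pgf and -0.42 for the receptor gene Tgfbr2. The proteases Mmp10 (2.73), Mmp12 (1.69), Mmp8 (0.67), Mmp13 (0.52) and Mmp14 (0.43) had upward differences. Among the 13 matrix metalloproteinases and inhibitors tested these were the 5 upward calls, while 1 was downward (Mmp19, named after its value was seen, at -0.58) and 7 were not called. Mmp12 was lower with steatotic in both contrasts, at 3957 and 3749.8 CPM against 2579.7 and 2161 CPM with CC and 1267 and 1289 CPM against 247 and 229.8 CPM with Veh.

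Genes linked to lipid- and scar-associated macrophages had values of 1.59 for Itgax, 0.79 for Cd9, 0.75 for Atp6v0d2, 0.66 for Lgals3, 0.58 for Gpnmb, 0.39 for Fabp5, 0.28 for Cd63 and -0.29 for Lipa, the only downward one. Gpnmb and Lgals3 had log2 fold changes of -0.70 and -1.02 with Veh and of -0.11 and -0.36 with CC, so the livers lay closer with CC.

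Chemokines, cytokines and signalling genes had 1.98 for Cxcl13, 1.32 for Cxcl3, 0.54 for Ccl6, -0.48 for Ccl5, 0.95 for Il1b, 1.15 for Il1a, 0.52 for Relb and 0.75 for Egr1. Surface receptors had 1.77 for Clec4e, 0.83 for Sirpb1a, -0.31 for Adgre1, the selection marker, -0.49 for Tlr1, -0.90 for Tlr9, -1.11 for Fcgrt, -0.89 for Mrc1, -0.53 for Scarb1, -1.57 for Cd207 and -1.20 for Pecam1, and Gas6 had -1.01.

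Metabolic genes had 1.93 for Slc7a11, 1.14 for Ass1, 1.04 for Nos2, 0.74 for Slc7a2, 1.43 for Acsl3, 1.57 for Ptgs2, 1.39 for Ptges, -0.93 for Ptgs1, -0.74 for Hpgds, 0.45 for Hif1a, -0.37 for Slc40a1, -0.32 for Tfrc, -0.73 for mt-Cytb and -0.51 for mt-Nd3. The remaining ones were C3 (0.64), Ctsk (0.57), Eef1a2 (3.22), Nfix (2.75), Maf (-0.25), Dysf (-1.01), Srprb (-1.21), Zdhhc24 (-1.44), Commd10 (-1.38), AI413582 (-1.51) and Adcy3 (-1.18). With groups of 2 libraries, no search for single outlying libraries was made.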

How the results depend on the processing

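The counts with CC kept within 1.5 times the main counts (2373 higher, 2061 lower) under DESeq2, other scalings, other filters, counts divided by 4, another prior count and the 4 CC libraries alone. DESeq2 shared 4068 of the 4434 calls (91.7%), and no shared call had the opposite sign in any alternative. The count of called genes past 2-fold fell from 904 and 349 to 467 and 140 with a minimum of 5 CPM, which tests fewer genes, and to 425 and 97 with a test against a 2-fold change (glmTreat). DESeq2 gave 427 upward and 308 downward differences, against 295 and 213.

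Leaving out 1 library at a time gave 1806 to 2341 genes higher and 1351 to 1957 lower with CC, 753 to 908 and 286 to 349 past 2-fold, 1871 to 2400 higher and 1554 to 2190 lower with Veh, and 190 to 247 upward and 109 to 183 downward differences. The lowest count of lower genes came without normal CC replicate 1. Upward differences were 190 without normal Veh replicate 2 and 193 without steatotic Veh replicate 2. Downward ones were 139 without normal Veh replicate 1, 122 and 118 without normal CC replicates 1 and 2, and 124 and 109 without steatotic Veh replicates 1 and 2. The cause was not tested.

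Same-numbered libraries did not deviate together (correlations -0.032 to 0.043 over 9021 genes). Libraries prepared together with little shared error would look the same, so pairing by number is not excluded. With the replicate number as a block, 2244 genes were higher and 1913 lower with CC, and 243 and 167 differences were called. Of 165 named genes called with CC, the block ended the call of 1, Trem2. DESeq2 and the 4 CC libraries alone each ended 2 of these calls, and the test against a 2-fold change ended 86.

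Of the named genes that did not pass, 4 changed sign. Tfe3 had -0.0018 by library size only, and with 1 library left out -0.0031 to 0.035. Tgfb1 had 0.0001 with a minimum of 5 CPM, and -0.062 to 0.044 with 1 library left out. Ccl2 ran from -0.14 to 0.076, and Tlr4, whose replicates crossed, from -1.91 to 2.41. With 2 libraries a group, p-values rest on a spread pooled over the 4 groups, and the 181 higher and 83 lower genes called below a mean of 1 CPM had a median change of 2.36 in log2.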

Other observations

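Genes of the mitochondrial genome, which encode subunits of the respiratory chain, were looked at after the values of the nuclear subunits had been seen. All 13 protein-coding ones were lower with steatotic in the CC libraries, with log2 fold changes from -1.48 to -0.40 and a median of -0.92, while 9 were lower with Veh (median -0.42) and the difference was called downward for 12. Their summed level was 15834 and 15053 CPM with normal and 9542 and 8911 CPM with steatotic under CC, and 16682 and 15698 CPM against 12761 and 12950 CPM with Veh. mt-Cytb had 1203 and 1124 CPM against 493 and 452 CPM and mt-Nd3 129 and 124 CPM against 46.7 and 42.8 CPM. Neither of the 2 mitochondrial ribosomal RNA genes was lower with CC, and 1 was higher. Nuclear copies of mitochondrial genes can share their reads, so these values are uncertain.

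Further families were also counted after their values had been seen, and their counts stand beside 16.8% higher and 14.6% lower of all genes. All 10 guanylate-binding proteins, which attack vacuoles of microbes under interferon, were higher with CC (median 0.71, summed 1307 and 1396 CPM with normal and 2028 and 2035 CPM with steatotic), and their difference from Veh was called for none (2.09% upward and 1.51% downward of all genes). Of 10 membrane-spanning 4A genes 9 were higher (median 1.38), and of 12 class I histocompatibility genes 8 were higher and 1 lower. Both are families of near copies in which reads may be split. Of 96 ribosomal protein genes 13 were higher and 9 lower (median 0.035). Solute carriers had 41 of 213 higher and 43 lower, and zinc finger proteins 23 of 331 higher and 36 lower. Not every family counted is described.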
